A study of Mus musculus with 9 samples.

Results

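The 46 genes described here encode proteins of DNA replication other than the MCM helicase. They were listed by name and sorted into 10 steps, from origin recognition to nucleotide supply. Each was read from the probe set that names it alone and had the highest mean signal over all 9 arrays. Values were obtained for 45 of them among the 18193 genes tested. Chaf1a was not analysed here. RNA came from L8057, a mouse megakaryocytic cell line, and was hybridised to 9 one-colour short-oligonucleotide arrays. CBFb_KD cells carried a short hairpin RNA against CBFb, the subunit that pairs with RUNX proteins in the core binding factor. Ring1b_KD cells carried one against Ring1b, the ubiquitin ligase of Polycomb repressive complex 1 encoded by Rnf2, and Control cells an empty vector. Each group had 3 arrays, which the submitters call biological triplicates. Whether each culture was infected on its own is not stated, so the p-values reflect variation among these arrays only, which may be technical. All cells, controls included, received lentivirus, then puromycin from 48 h after infection together with 50 nM of the phorbol ester TPA, a maturation stimulus for this line, and were harvested 72 h later. Every difference below is therefore one between cells exposed to TPA for 3 days.

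DNA replication begins where the origin recognition complex, with Cdc6 and Cdt1, loads the MCM helicase in G1, and geminin blocks a second loading in the same cycle. Cdc45 and the GINS complex join the helicase to make it active, primase and polymerase alpha lay down primers, and polymerases delta and epsilon extend them while held by the sliding clamp PCNA, which the RFC complex loads. Ribonucleotide reductase and its partner enzymes supply the nucleotides. Many of these genes are transcribed in late G1 and S phase under E2F factors. Megakaryocytes raise their ploidy during maturation by repeated rounds of replication without cell division.

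Over all probe sets other than array controls, arrays of one group correlated at 0.995 to 0.997 and arrays of different groups at 0.986 to 0.994. The targeted transcripts were lower under their own hairpins, Cbfb at 9.32, 9.14 and 9.12 in CBFb_KD against 12.27, 12.33 and 12.50 in Control, and Rnf2 at 9.08, 8.96 and 8.92 in Ring1b_KD against 10.56, 10.68 and 10.72. Of the markers of the labelled cell type, Pf4 read 14.42, Gata1 11.66 and Itga2b 11.22 as Control means, while Vwf (5.52) and Nfe2 (5.37) were dim. The mean over the 10 measured megakaryocyte markers was 8.57 to 8.87 on Control, 8.47 to 8.84 on Ring1b_KD and 9.51 to 9.56 on CBFb_KD arrays. In CBFb_KD 4 of these 10 and 3 of 6 erythroid markers were called higher, while in Ring1b_KD the megakaryocyte marker Vwf was called lower (-0.75) and the lymphoid marker Cd8a higher (0.31). Of all genes tested, 7.78% were called higher in CBFb_KD, and 6.57% lower and 5.66% higher in Ring1b_KD. The erythroid mean was 7.76 to 7.86 on Control, 7.86 to 8.05 on Ring1b_KD and 8.29 to 8.48 on CBFb_KD arrays. The means over 6 monocyte and macrophage, 6 lymphoid and 6 fibroblast markers were 6.62 to 6.79, 6.35 to 6.52 and 6.73 to 6.81 on CBFb_KD arrays, against 6.67 to 6.73, 6.36 to 6.44 and 6.70 to 6.82 on Control arrays. On Ring1b_KD arrays they were 6.71 to 6.81, 6.48 to 6.53 and 6.75 to 6.87. The lymphoid mean was thus higher on every Ring1b_KD array than on any Control array, but narrowly (6.48 against 6.44). For 16.3% of all genes the 3 Ring1b_KD arrays also lay above Control. Of the 6 lymphoid markers only Cd8a was called, and Cd3g (4.61) and Cd79b (5.56) were dim as Control means. Among the fibroblast markers Col1a2 was bright, at a Control mean of 11.47, with the others at 4.24 to 6.58. Col1a2 was not called in CBFb_KD (0.39, limma adjusted p = 0.151) or Ring1b_KD (0.15, limma adjusted p = 0.619). The megakaryocyte and erythroid markers moved in the same CBFb_KD arrays as the replication genes below, and their part in those results was not tested. Nor was that of the small lymphoid difference in the Ring1b_KD arrays. The gap between 3' and 5' control probe sets lay at 0.06 to 0.15 (log2) for Actb and at -0.07 to 0.12 for Gapdh over the 9 arrays.

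With CBFb reduced, most of the replication genes fell. Of 45 measured, 33 were called lower, 1 higher and 11 not called, where called means an adjusted p under 0.05 in limma's moderated test over all genes. Among all genes tested 7.6% were called lower and 7.78% higher. The median log2 difference was -0.435, a 1.35-fold reduction, against -0.014 over all genes, and 41 of 45 values were below 0, as were 53.9% of all genes. For 37 members all 3 CBFb_KD arrays lay below all 3 Control arrays, as they did for 16.9% of all genes. Sizes were moderate, and the largest decrease, of Ung, was 1.78-fold. In a culture, fewer cells in S phase and less RNA per cell cannot be told apart. The count of members called lower was 25 without CBFb_KD array 2, 22 without CBFb_KD array 3, and 25, 26 and 25 without Control arrays 1, 2 and 3. In the same order, 4.52%, 5.19%, 5.62%, 5.11% and 4.45% of all genes were then called lower.

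With Ring1b reduced, calls were fewer and went in both directions. Limma called 8 lower and 2 higher, and 35 were not called, against backgrounds of 6.57% lower and 5.66% higher. The median log2 difference was -0.182 against 0.007 over all genes, and 31 of 45 values were below 0, as were 48.2% of all genes. All 3 Ring1b_KD arrays lay below Control for 18 members, as for 16.6% of all genes, and above it for 4 members, as for 16.3% of all genes. The count depended on scaling: 18 were called lower and 1 higher with the values as deposited, where 9.39% of all genes were called lower and 4.85% higher. With the arrays centred on their medians 25 were called lower and no member higher, where 14% of all genes were called lower and 1.93% higher. It also depended on single arrays. Averaged over the 45 genes, Ring1b_KD array 2 stood 0.296 below the Control mean on the log2 scale, with arrays 1 and 3 at -0.081 and -0.032. Without array 2 the calls were 2 lower and 3 higher, where 5.18% of all genes were called lower and 3.86% higher. When Control array 1, 2 or 3 was left out in turn, 4, 2 and 4 members were called lower. The share of all genes called lower also fell, to 4.77%, 3.76% and 3.68%.

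Set directly against each other, CBFb_KD lay below Ring1b_KD for 19 members called and above it for 2, where 9.31% of all genes were called lower and 10.1% higher. The median was -0.273 against -0.024 over all genes, and for 23 members all 3 CBFb_KD arrays were below all 3 Ring1b_KD arrays, as for 17.6% of all genes. With median centring the split was 9 lower and 4 higher, where 2.83% of all genes were called lower and 14.9% higher. With the values as deposited it was 14 lower and 3 higher, where the shares of all genes were 7.06% and 11.6%. Tested for any difference among the 3 groups by a moderated F statistic, 39 of the 45 were called, as were 25.8% of all genes. The 2 knockdowns share their Control arrays, so their differences from Control are not independent and are given side by side.

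**Figure D1:**
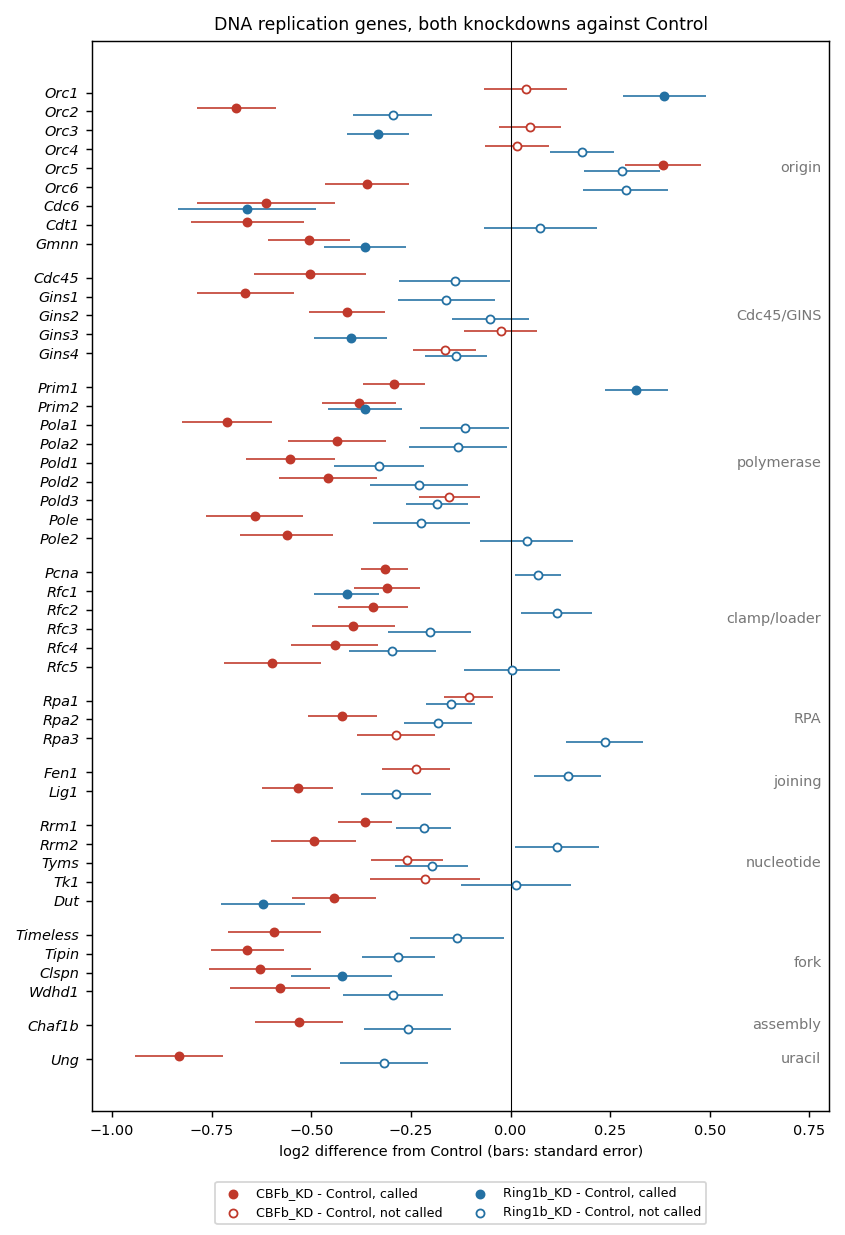
Log2 difference from Control (x axis) of each of the 45 measured genes (y axis, grouped by step) in CBFb_KD (red) and Ring1b_KD (blue), with bars for the standard error and filled points for limma adjusted p under 0.05. Of the CBFb_KD points, 33 filled ones lie left of 0 and that of Orc5 lies right of it, while 8 filled Ring1b_KD points lie left and those of Orc1 and Prim1 lie right.

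**Figure D2:**
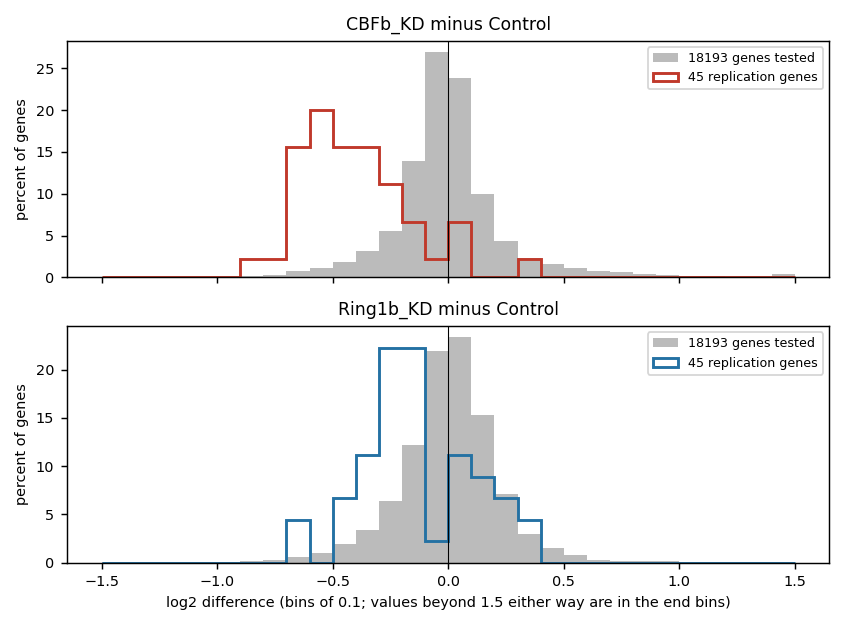
Percent of genes (y axis) by log2 difference (x axis, bins of 0.1) for the 18193 genes tested (grey) and the 45 replication genes (outline) in CBFb_KD (upper) and Ring1b_KD (lower) minus Control. The replication genes centre at a median of -0.435 in CBFb_KD and -0.182 in Ring1b_KD, against -0.014 and 0.007 for all genes.

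The promoters of the genes that moved together are shown next, because E2F and NF-Y factors are known regulators of many replication genes. One is given for each of the origin, polymerase, clamp and nucleotide supply steps, namely the gene of that step with the smallest p in CBFb_KD. Each is the first window that RefSeq lists for the gene on GRCm38.p6, from 250 bases before the transcription start to 50 after it, written 5′ to 3′ on the gene's strand. Capitals mark the E2F words TTTCCCGC, TTTCGCGC, TTTGCCGC and TTTGGCGC and the NF-Y word CCAAT on either strand.
Orc2, chr1:58505060-58505359, minus strand: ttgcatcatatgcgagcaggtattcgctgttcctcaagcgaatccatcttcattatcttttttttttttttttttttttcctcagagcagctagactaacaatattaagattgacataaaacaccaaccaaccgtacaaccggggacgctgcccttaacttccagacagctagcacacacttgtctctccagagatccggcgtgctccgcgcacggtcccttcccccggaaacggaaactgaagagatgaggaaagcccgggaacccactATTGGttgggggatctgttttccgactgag
Pola1, chrX:93632106-93632405, minus strand: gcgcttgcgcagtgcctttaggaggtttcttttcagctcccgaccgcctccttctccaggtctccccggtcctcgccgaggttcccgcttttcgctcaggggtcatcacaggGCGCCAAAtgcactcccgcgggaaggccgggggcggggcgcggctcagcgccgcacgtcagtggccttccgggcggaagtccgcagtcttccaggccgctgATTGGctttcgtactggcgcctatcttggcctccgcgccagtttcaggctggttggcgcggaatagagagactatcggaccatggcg
Pcna, chr2:132253131-132253430, minus strand: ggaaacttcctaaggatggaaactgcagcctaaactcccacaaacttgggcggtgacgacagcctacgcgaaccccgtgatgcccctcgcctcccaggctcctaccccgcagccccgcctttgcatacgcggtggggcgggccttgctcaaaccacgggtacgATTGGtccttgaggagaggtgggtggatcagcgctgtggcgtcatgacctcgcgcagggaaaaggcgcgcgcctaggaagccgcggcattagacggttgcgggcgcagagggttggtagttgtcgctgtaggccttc
Rrm1, chr7:102441445-102441744, plus strand: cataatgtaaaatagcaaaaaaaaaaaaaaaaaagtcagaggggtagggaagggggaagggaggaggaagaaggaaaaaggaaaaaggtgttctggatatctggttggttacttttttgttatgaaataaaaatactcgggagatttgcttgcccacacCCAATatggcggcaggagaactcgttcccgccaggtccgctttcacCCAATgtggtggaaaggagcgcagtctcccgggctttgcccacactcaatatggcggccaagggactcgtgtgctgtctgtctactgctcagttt
Each of these 4 windows holds CCAAT on one strand or the other, and that of Pola1 also holds an E2F word.

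Of the 45 measured genes, 37 had a window in the RefSeq table. An E2F word stood in the first window of 11 of them (29.7%). The 27025 genes searched in that table did not cover every chromosome. Of their first windows 2.32% held an E2F word, as did 3.38% of those of the tested genes among them. First windows had a median GC content of 63.3% for the members and 58.7% for these tested genes, so base composition differed too. CCAAT was found in 17 member windows (45.9%) against 37.9% over the 27025 genes. The word TGTGGT, the core read by RUNX proteins, was found in 6 (16.2%) against 16.9%. Shares among the tested genes alone were not computed for these words. No E2F word contains CCAAT or TGTGGT, and each word was counted on its own. The stretches below show E2F words, in capitals, in 5 genes that were called lower in CBFb_KD and then in 3 that were not called.
Cdc6, chr11:98908002-98908031, plus strand: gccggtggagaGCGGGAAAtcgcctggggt
Cdt1, chr8:122568035-122568064, plus strand: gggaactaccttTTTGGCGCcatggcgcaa
Pold1, chr7:44548766-44548795, minus strand: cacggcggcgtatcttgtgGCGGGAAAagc
Pole2, chr12:69228162-69228191, minus strand: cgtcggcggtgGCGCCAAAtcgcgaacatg
Clspn, chr4:126556990-126557019, plus strand: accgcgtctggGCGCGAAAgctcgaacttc
Orc1, chr4:108579416-108579445, plus strand: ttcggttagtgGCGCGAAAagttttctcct
Orc3, chr4:34614965-34614994, minus strand: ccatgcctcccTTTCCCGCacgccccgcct
Gins3, chr8:95633507-95633536, plus strand: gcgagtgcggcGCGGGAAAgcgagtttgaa
Of the 11 members with such a word, 7 were called lower in CBFb_KD, with a median log2 difference of -0.553, and of the 26 without one 19 were called lower, with a median of -0.428. In Ring1b_KD 4 of the 11 and 2 of the 26 were called lower, and 1 of each set higher, with medians of -0.203 and -0.145. The shares of all genes tested were 7.6% lower in CBFb_KD, and 6.57% lower and 5.66% higher in Ring1b_KD. Those 4, namely Cdc6, Orc3, Gins3 and Clspn, all lost the call without Ring1b_KD array 2. Those 2, Dut and Rfc1, kept it in all 16 alternatives described at the end. Neither in CBFb_KD nor in Ring1b_KD was the difference between members with and without the word tested. A match describes letters only, and no test of binding was made.

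Origin recognition and licensing held calls in both directions. In CBFb_KD 5 of 9 genes fell, 1 rose and 3 were not called, with a median of -0.36, and in Ring1b_KD 3 fell and 1 rose. Orc2, a subunit of the origin recognition complex, read 10.22, 10.14 and 10.30 in Control, 9.55, 9.45 and 9.60 in CBFb_KD and 9.82, 9.80 and 10.15 in Ring1b_KD. Its CBFb_KD arrays lay below all others and those of Ring1b_KD lay in between, with array 3 overlapping Control. The decrease in CBFb_KD was 1.61-fold (log2 difference -0.69, SE 0.10, limma adjusted p = 0.000514), that in Ring1b_KD was not called (-0.30, limma adjusted p = 0.0719), and the difference between the knockdowns was called (-0.39, limma adjusted p = 0.0146), although not as deposited, with median centring or without CBFb_KD array 2. Both other probe sets of Orc2 were also called lower in CBFb_KD (-0.53 and -0.55), and 1 of them in Ring1b_KD (-0.34, limma adjusted p = 0.0319).

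Orc6, a further subunit, read 9.67, 9.80 and 9.87 in Control, 9.53, 9.35 and 9.38 in CBFb_KD and 10.23, 9.84 and 10.14 in Ring1b_KD. It was lowest in CBFb_KD and had its highest mean in Ring1b_KD, where array 2 overlapped Control. The gap between the knockdowns was 1.57-fold (log2 difference -0.65, SE 0.11, limma adjusted p = 0.000951). Its own difference from Control in CBFb_KD was -0.36 (limma adjusted p = 0.0357), and it was not called with median centring or without CBFb_KD array 2 or 3 or Control array 2 or 3 (-0.42 to -0.31, limma adjusted p up to 0.147). Cdt1, the loading factor that geminin binds, read 10.73, 10.73 and 10.71 in Control, 10.34, 9.90 and 9.95 in CBFb_KD and 10.95, 10.44 and 11.00 in Ring1b_KD. All CBFb_KD arrays were below the rest, and the Ring1b_KD arrays lay on both sides of Control. It fell 1.58-fold in CBFb_KD (log2 difference -0.66, SE 0.14, limma adjusted p = 0.00633) with a Ring1b_KD value of 0.07 (limma adjusted p = 0.787), and the knockdowns differed by -0.74 (limma adjusted p = 0.00289).

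Orc1, Orc3, Orc4 and Orc5 were not called lower in CBFb_KD by their brightest probe sets. Orc3 fell under the Ring1b hairpin (-0.33, limma adjusted p = 0.0148) and was not called in CBFb_KD (0.05, limma adjusted p = 0.787), and CBFb_KD exceeded Ring1b_KD by 0.38 (limma adjusted p = 0.00407). The Ring1b_KD decrease of Orc3 was not called without Ring1b_KD array 2 or Control array 2 (-0.52 to -0.28, limma adjusted p up to 0.0715). Orc5 was the 1 member called higher in CBFb_KD (0.38, limma adjusted p = 0.0148), but not without CBFb_KD array 3 or Control array 1 (0.30 to 0.46, limma adjusted p up to 0.077). Orc4 was not called against Control in CBFb_KD (0.02, limma adjusted p = 0.944) or Ring1b_KD (0.18, limma adjusted p = 0.169). Orc1 rose in Ring1b_KD by its brightest probe set (0.39, limma adjusted p = 0.0295), but its probe sets disagreed. That probe set stood at 0.04 in CBFb_KD, where the other one was called lower (-0.66, limma adjusted p = 0.00523 among probe sets), and with the mean of both Orc1 was lower in CBFb_KD (-0.31, limma adjusted p = 0.0216). The rise in Ring1b_KD was not called with median centring, with the mean of its probe sets or without Ring1b_KD array 2 or 3 or Control array 2 or 3 (0.18 to 0.50, limma adjusted p up to 0.189).

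Cdc6, the ATPase that loads the helicase with Cdt1, and Gmnn, which encodes geminin, fell in both knockdowns. Cdc6 stood at -0.61 (limma adjusted p = 0.0291) in CBFb_KD and -0.66 (limma adjusted p = 0.0258) in Ring1b_KD, with 7.32 on Ring1b_KD array 2 against 7.99 and 8.12 on the other two. In CBFb_KD it was not called without CBFb_KD array 2 or 3 or any 1 Control array (-0.73 to -0.53, limma adjusted p up to 0.124), and in Ring1b_KD not without Ring1b_KD array 2 or any 1 Control array (-0.82 to -0.42, limma adjusted p up to 0.105). Gmnn stood at -0.51 (limma adjusted p = 0.00459) and -0.36 (limma adjusted p = 0.0357), and only the second of these calls was lost when arrays were left out, namely without Ring1b_KD array 1 or 2 or any 1 Control array (-0.56 to -0.29, limma adjusted p up to 0.124). The licensing factor Cdt1 and its inhibitor geminin both fell in CBFb_KD, while in Ring1b_KD geminin was called and Cdt1 was not.

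Cdc45 and GINS, which complete the active helicase, held 3 of 5 genes lower in CBFb_KD and 1 lower in Ring1b_KD, with medians of -0.41 and -0.14. Gins1 read 7.62, 7.66 and 7.71 in Control, 7.21, 6.88 and 6.92 in CBFb_KD and 7.75, 7.24 and 7.52 in Ring1b_KD. CBFb_KD arrays were the lowest, although CBFb_KD array 1 (7.21) and Ring1b_KD array 2 (7.24) were close. Gins1 fell 1.59-fold (log2 difference -0.67, SE 0.12, limma adjusted p = 0.00236) and Gins2 stood at -0.41 (limma adjusted p = 0.0107). Cdc45 stood at -0.50 (limma adjusted p = 0.0269), but was not called with the mean of its probe sets or without CBFb_KD array 2 or 3 or Control array 1 or 3 (-0.60 to -0.26, limma adjusted p up to 0.126).

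Gins3 took the other path among the GINS subunits. It read 7.72, 7.84 and 7.77 in Control, 7.86, 7.65 and 7.75 in CBFb_KD and 7.54, 7.24 and 7.34 in Ring1b_KD. The Ring1b_KD arrays lay below all others, while Control and CBFb_KD overlapped. The decrease in Ring1b_KD was 1.32-fold (log2 difference -0.40, SE 0.09, limma adjusted p = 0.0133), CBFb_KD stood at -0.02 (limma adjusted p = 0.918), and the knockdowns differed by 0.38 (limma adjusted p = 0.0117). The other Gins3 probe set gave -0.48 in Ring1b_KD (limma adjusted p = 0.011 among probe sets). The decrease was not called without Ring1b_KD array 2 or Control array 2 (-0.48 to -0.34, limma adjusted p up to 0.0588). Gins2 read 10.19, 10.23 and 10.27 in Control, 9.96, 9.73 and 9.76 in CBFb_KD and 10.24, 9.99 and 10.31 in Ring1b_KD, with Ring1b_KD spanning Control and CBFb_KD below it, and Gins4 was not called in CBFb_KD (-0.17, limma adjusted p = 0.209) or Ring1b_KD (-0.14, limma adjusted p = 0.286).

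Polymerases and primase fell in CBFb_KD in 8 of 9 genes, with a median of -0.458. In Ring1b_KD 1 fell and 1 rose. Prim1, the catalytic primase subunit, had the smallest F test p of all 45 genes and read 10.69, 10.73 and 10.71 in Control, 10.44, 10.37 and 10.44 in CBFb_KD and 11.03, 10.89 and 11.15 in Ring1b_KD. The 3 groups did not overlap, with CBFb_KD lowest and Ring1b_KD highest. Prim1 was called lower in CBFb_KD (log2 difference -0.29, SE 0.08, limma adjusted p = 0.022), higher in Ring1b_KD (log2 difference 0.32, SE 0.08, limma adjusted p = 0.02) and lower in CBFb_KD than in Ring1b_KD by 1.52-fold (log2 difference -0.61, SE 0.08, limma adjusted p = 0.000167). The rise in Ring1b_KD was not called as deposited, with median centring or without Ring1b_KD array 3 or any 1 Control array (0.12 to 0.38, limma adjusted p up to 0.468), and the fall in CBFb_KD was not called with median centring or without CBFb_KD array 2 or 3 or any 1 Control array (-0.32 to -0.27, limma adjusted p up to 0.0821). The difference between the knockdowns was called in all 16 alternatives (-0.68 to -0.42, limma adjusted p up to 0.0072).

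Pola1, the catalytic subunit of polymerase alpha whose promoter is printed above, read 9.56, 9.74 and 9.76 in Control, 9.11, 8.85 and 8.96 in CBFb_KD and 9.76, 9.34 and 9.61 in Ring1b_KD. The CBFb_KD arrays were below the rest, and Ring1b_KD overlapped Control, with array 2 below it. Pola1 fell 1.64-fold in CBFb_KD (log2 difference -0.71, SE 0.11, limma adjusted p = 0.000861), and stood at -0.11 (limma adjusted p = 0.559) in Ring1b_KD. Pole2, the second subunit of polymerase epsilon, read 9.24, 9.34 and 9.19 in Control, 8.76, 8.57 and 8.76 in CBFb_KD and 9.57, 9.05 and 9.27 in Ring1b_KD. Again CBFb_KD was lowest, while here Ring1b_KD lay on both sides of Control, and the knockdowns differed by -0.60 (limma adjusted p = 0.00299). The fall of Pole2 in CBFb_KD was -0.56 (limma adjusted p = 0.00524), and it was not called with the mean of its probe sets (-0.28, limma adjusted p = 0.123), 1 of the 2 being dim at a Control mean of 4.13.

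Of the other polymerase genes, Pole, the catalytic subunit of the leading strand polymerase, stood at -0.64 (limma adjusted p = 0.00294) in CBFb_KD, and Pold1, that of the lagging strand polymerase, at -0.55 (limma adjusted p = 0.00447). The accessory subunits Pold2 and Pola2 stood at -0.46 (limma adjusted p = 0.0225) and -0.43 (limma adjusted p = 0.0297), and Prim2, the large primase subunit, at -0.38 (limma adjusted p = 0.0136). Pold2 was not called without CBFb_KD array 2 or 3 or Control array 2 or 3 (-0.58 to -0.36, limma adjusted p up to 0.104), and Pola2 not with the mean of its probe sets or without CBFb_KD array 2 or 3 or Control array 1 or 3 (-0.53 to -0.12, limma adjusted p up to 0.447). Prim2 also fell in Ring1b_KD (-0.37, limma adjusted p = 0.0224), so by their brightest probe sets the 2 primase subunits differed in direction there. A second Prim2 probe set was also called lower there (-0.42, limma adjusted p = 0.0152 among probe sets). The third stood at 0.28 and was not called (limma adjusted p = 0.106), nor was the other Prim1 probe set (0.26, limma adjusted p = 0.14). Prim2 was not called in CBFb_KD without CBFb_KD array 3 or Control array 1 or 3 (-0.43 to -0.29, limma adjusted p up to 0.0644), and in Ring1b_KD not with the mean of its probe sets or without Ring1b_KD array 1 or 2 or any 1 Control array (-0.55 to -0.17, limma adjusted p up to 0.155). Pold3 was the 1 polymerase gene not called in CBFb_KD (-0.15, limma adjusted p = 0.244), and its Ring1b_KD value was -0.18 (limma adjusted p = 0.145).

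Clamp and clamp loader genes were all called lower in CBFb_KD, 6 of 6, with a median of -0.37 and a narrow range from -0.60 to -0.31. In Ring1b_KD 1 of 6 was called. Pcna, the sliding clamp, read 13.65, 13.71 and 13.72 in Control, 13.41, 13.38 and 13.34 in CBFb_KD and 13.84, 13.67 and 13.79 in Ring1b_KD. The CBFb_KD arrays were the lowest and the other groups overlapped. Pcna fell 1.25-fold in CBFb_KD (log2 difference -0.32, SE 0.06, limma adjusted p = 0.00248) and stood at 0.07 (limma adjusted p = 0.498) in Ring1b_KD, a difference between the knockdowns of -0.38 (limma adjusted p = 0.000567). Rfc5, a small loader subunit, read 10.78, 10.79 and 10.85 in Control, 10.30, 10.04 and 10.29 in CBFb_KD and 10.86, 10.51 and 11.06 in Ring1b_KD. It fell 1.51-fold in CBFb_KD (log2 difference -0.60, SE 0.12, limma adjusted p = 0.00442), while the Ring1b_KD arrays lay on both sides of Control. Rfc2 read 11.03, 11.14 and 10.87 in Control, 10.81, 10.62 and 10.58 in CBFb_KD and 11.16, 11.05 and 11.17 in Ring1b_KD, with CBFb_KD below the other groups.

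Rfc1, the large loader subunit, was the clamp gene called in Ring1b_KD (-0.41, limma adjusted p = 0.00667), and it held that call in all 16 alternatives (-0.60 to -0.31, limma adjusted p up to 0.035). In CBFb_KD Rfc1 stood at -0.31 (limma adjusted p = 0.0213), but was not called without CBFb_KD array 2 or 3 or Control array 1 or 2 (-0.36 to -0.25, limma adjusted p up to 0.101). Rfc3 and Rfc4 fell in CBFb_KD (-0.39, limma adjusted p = 0.0198, and -0.44, limma adjusted p = 0.0142). In CBFb_KD Rfc2 was not called with the mean of its probe sets or without CBFb_KD array 2 or 3 or Control array 1 or 2 (-0.42 to -0.28, limma adjusted p up to 0.108), Rfc3 not without CBFb_KD array 3 or Control array 2 or 3 (-0.44 to -0.34, limma adjusted p up to 0.0895), and Rfc4 not without Control array 3 (-0.51 to -0.36, limma adjusted p up to 0.0795). 

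**Figure D3:**
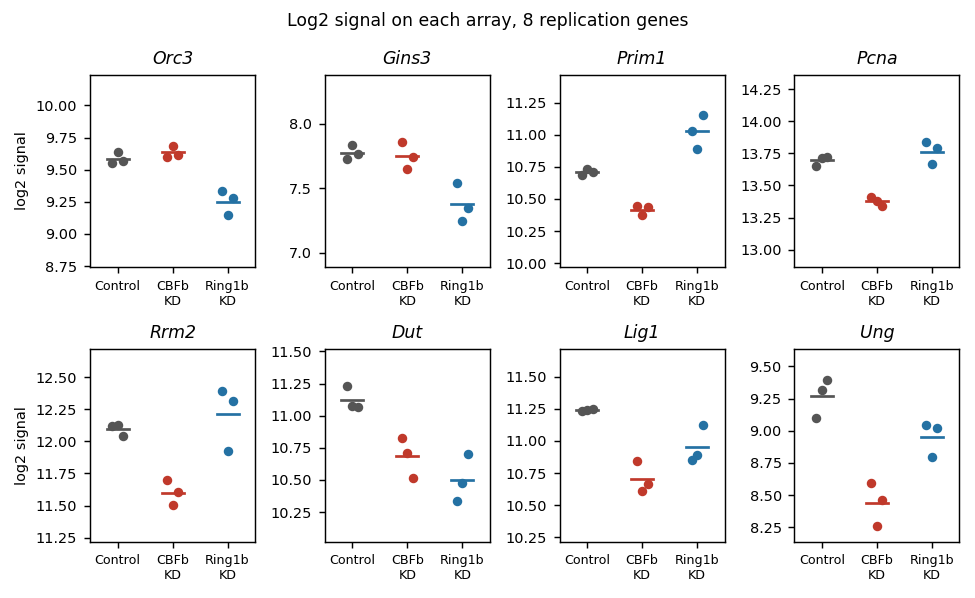
Log2 signal (y axis, spanning 1.5 units in each panel) on each of the 9 arrays for 8 replication genes, with points for arrays and lines for group means. Prim1 is lowest in CBFb_KD and highest in Ring1b_KD, Orc3, Gins3 and Dut have their lowest group mean in Ring1b_KD, and Pcna, Rrm2, Lig1 and Ung are lowest in CBFb_KD.

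Replication protein A, which coats single-stranded DNA, and the enzymes that join Okazaki fragments changed less uniformly. Rpa2 was called lower in CBFb_KD (log2 difference -0.42, SE 0.09, limma adjusted p = 0.00459), at 10.07, 10.12 and 10.08 in Control, 9.81, 9.56 and 9.64 in CBFb_KD and 9.87, 9.83 and 10.02 in Ring1b_KD. Rpa3, the smallest subunit, read 10.76, 10.87 and 10.89 in Control, 10.54, 10.60 and 10.52 in CBFb_KD and 11.30, 10.90 and 11.03 in Ring1b_KD. CBFb_KD was lowest and Ring1b_KD highest with no overlap between groups, and only the difference between the knockdowns was called (-0.52, limma adjusted p = 0.00225), but not with median centring. Rpa1, the large subunit, read 12.36, 12.40 and 12.34 in Control, 12.34, 12.21 and 12.23 in CBFb_KD and 12.23, 12.22 and 12.21 in Ring1b_KD and was not called in either knockdown (-0.10, limma adjusted p = 0.343, and -0.15, limma adjusted p = 0.139).

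Lig1, the ligase that seals Okazaki fragments, read 11.23, 11.24 and 11.25 in Control, 10.85, 10.61 and 10.66 in CBFb_KD and 10.85, 10.89 and 11.12 in Ring1b_KD. Control arrays lay above every knockdown array. Lig1 fell 1.45-fold in CBFb_KD (log2 difference -0.53, SE 0.09, limma adjusted p = 0.0012), and its Ring1b_KD value missed the threshold (-0.29, limma adjusted p = 0.0516) but was called in 7 of 16 alternatives. Fen1, the flap nuclease, read 12.66, 12.63 and 12.68 in Control, 12.60, 12.36 and 12.31 in CBFb_KD and 12.89, 12.65 and 12.86 in Ring1b_KD. By this probe set it was not called in CBFb_KD (-0.24, limma adjusted p = 0.0831), although the other one was called lower in both knockdowns (-0.44 and -0.31, limma adjusted p = 0.00351 and 0.0296 among probe sets), so its probe sets disagree.

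Nucleotide supply fell in 3 of 5 genes in CBFb_KD, with a median of -0.365, and in 1 of 5 in Ring1b_KD. Rrm2, the subunit of ribonucleotide reductase whose level follows S phase, read 12.12, 12.12 and 12.04 in Control, 11.70, 11.50 and 11.60 in CBFb_KD and 12.39, 11.92 and 12.32 in Ring1b_KD. CBFb_KD arrays were lowest, and Ring1b_KD arrays stood above Control on 2 arrays and below on array 2. Rrm2 fell 1.41-fold in CBFb_KD (log2 difference -0.49, SE 0.11, limma adjusted p = 0.0062) and lay 1.53-fold below Ring1b_KD (log2 difference -0.61, SE 0.11, limma adjusted p = 0.00143). Both of its other probe sets were called lower in CBFb_KD, at -0.52 and -0.59. Rrm1, the large subunit, read 11.69, 11.70 and 11.75 in Control, 11.42, 11.30 and 11.34 in CBFb_KD and 11.53, 11.41 and 11.55 in Ring1b_KD. It fell 1.29-fold in CBFb_KD (log2 difference -0.36, SE 0.07, limma adjusted p = 0.00276), lost that call with the mean of its 3 probe sets (-0.23, limma adjusted p = 0.0809), and missed the threshold in Ring1b_KD (-0.22, limma adjusted p = 0.0561). A second Rrm1 probe set was also called lower in CBFb_KD (-0.45, limma adjusted p = 0.0238 among probe sets). The third was dim, at a Control mean of 4.17, and was not called there (0.12). The Ring1b_KD decrease of Rrm1 was called in 5 of 16 alternatives.

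Dut, the enzyme that removes dUTP and makes the precursor of dTMP, read 11.23, 11.08 and 11.06 in Control, 10.82, 10.71 and 10.52 in CBFb_KD and 10.33, 10.47 and 10.70 in Ring1b_KD. Every knockdown array lay below every Control array. The decrease was 1.54-fold in Ring1b_KD (log2 difference -0.62, SE 0.11, limma adjusted p = 0.00255), called in all 16 alternatives (-0.82 to -0.54, limma adjusted p up to 0.0158), and 1.36-fold in CBFb_KD (log2 difference -0.44, SE 0.11, limma adjusted p = 0.0118), but not called without CBFb_KD array 3 or Control array 1 (-0.51 to -0.36, limma adjusted p up to 0.061). A second Dut probe set gave -1.01 in Ring1b_KD and -0.50 in CBFb_KD (limma adjusted p = 8.99e-05 and 0.00475 among probe sets), and between the knockdowns it was called (0.52, limma adjusted p = 0.00293) where the brighter one was not (0.18, limma adjusted p = 0.272). Tk1, the salvage thymidine kinase, was not called in CBFb_KD (-0.21, limma adjusted p = 0.396) or Ring1b_KD (0.01, limma adjusted p = 0.964). Tyms, thymidylate synthase, was not called in either (-0.26, limma adjusted p = 0.0765, and -0.20, limma adjusted p = 0.182), and its 4 probe sets were dim, with Control means of 4.83 to 6.31. No detection calls were used here, so whether Tyms was above background was not determined.

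Fork protection and checkpoint mediators were called lower in CBFb_KD in 4 of 4 genes, with a median of -0.61. In Ring1b_KD 1 of 4 was called, with a median of -0.288. Tipin, the partner of Timeless, read 11.33, 11.40 and 11.38 in Control, 10.70, 10.68 and 10.75 in CBFb_KD and 11.22, 10.86 and 11.19 in Ring1b_KD. The CBFb_KD arrays were below all others, and the Ring1b_KD arrays lay between. Tipin fell 1.58-fold in CBFb_KD (log2 difference -0.66, SE 0.09, limma adjusted p = 0.000375), and its Ring1b_KD value was -0.28 (limma adjusted p = 0.0632), called in 4 of 16 alternatives. Timeless read 10.27, 10.07 and 10.18 in Control, 9.85, 9.34 and 9.55 in CBFb_KD and 9.92, 10.02 and 10.17 in Ring1b_KD and fell 1.51-fold in CBFb_KD (log2 difference -0.59, SE 0.12, limma adjusted p = 0.00393), with a second probe set at -0.59. Clspn, which encodes the checkpoint mediator claspin, read 9.69, 9.70 and 9.87 in Control, 9.35, 8.92 and 9.10 in CBFb_KD and 9.18, 9.21 and 9.59 in Ring1b_KD, with CBFb_KD at -0.63 (limma adjusted p = 0.00446) and Ring1b_KD at -0.42 (limma adjusted p = 0.0468). The second of these calls was lost with the mean of its probe sets or without CBFb_KD array 3 or Ring1b_KD array 1 or 2 or any 1 Control array (-0.61 to -0.25, limma adjusted p up to 0.187). Wdhd1, which tethers polymerase alpha to the helicase, stood at -0.58 (limma adjusted p = 0.00707) in CBFb_KD and -0.29 (limma adjusted p = 0.154) in Ring1b_KD.

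The last genes act behind the fork. Chaf1b, a subunit of the chromatin assembly factor that deposits histones on new DNA, read 10.15, 10.28 and 10.36 in Control, 9.81, 9.66 and 9.72 in CBFb_KD and 10.20, 9.74 and 10.08 in Ring1b_KD and fell 1.45-fold in CBFb_KD (log2 difference -0.53, SE 0.11, limma adjusted p = 0.00508), with a Ring1b_KD value of -0.26 (limma adjusted p = 0.151). Ung, the glycosylase that removes uracil from DNA, read 9.10, 9.32 and 9.40 in Control, 8.60, 8.26 and 8.46 in CBFb_KD and 9.04, 8.79 and 9.02 in Ring1b_KD. Its groups did not overlap, with CBFb_KD lowest and Ring1b_KD between it and Control. Ung fell 1.78-fold in CBFb_KD (log2 difference -0.83, SE 0.11, limma adjusted p = 0.000292), stood at -0.32 (limma adjusted p = 0.0818) in Ring1b_KD, and differed between the knockdowns by -0.52 (limma adjusted p = 0.00568), a difference not called with median centring. Dut and Ung, which both keep uracil out of DNA, both fell in CBFb_KD, whereas in Ring1b_KD Dut was called and Ung was not. Ung was called lower in Ring1b_KD in 2 of 16 alternatives, so this contrast depended on the processing.

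**Figure D4:**
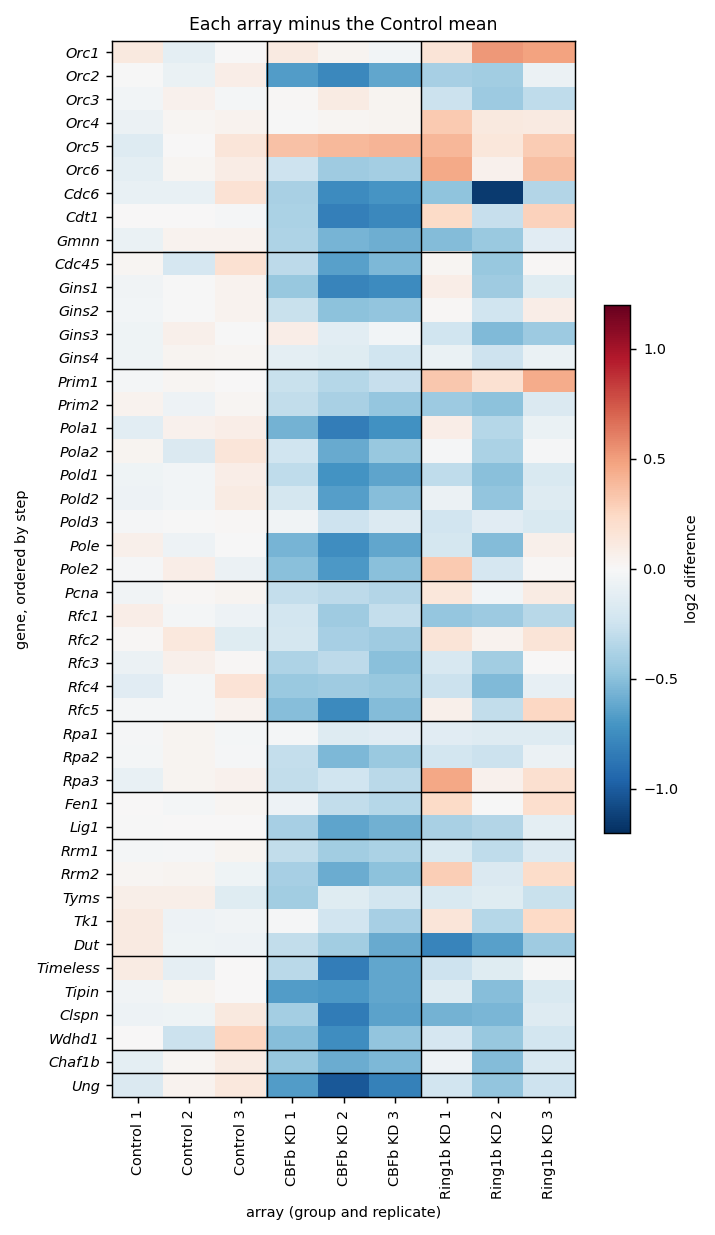
Log2 difference of each array (columns) from the Control mean for the 45 measured genes (rows, ordered by step), in blue for lower and red for higher. In CBFb_KD 41 of 45 genes have a mean difference below 0, and among the Ring1b_KD columns array 2 is the bluest, at a mean of -0.296.

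Compared by step, the CBFb_KD medians ran from -0.287 for replication protein A to -0.61 for fork protection among the steps with more than 2 genes. They were -0.36 for origins, -0.458 for polymerases, -0.37 for the clamp and its loader and -0.365 for nucleotide supply. On the single arrays, the mean of the polymerase genes stood at -0.331, -0.58 and -0.485 from the Control mean in CBFb_KD and at -0.059, -0.318 and -0.031 in Ring1b_KD. Origin genes stood at -0.177, -0.31 and -0.294 and at -0.012, -0.211 and 0.074. Clamp genes stood at -0.338, -0.441 and -0.423 and at -0.094, -0.28 and 0.012, and nucleotide genes at -0.286, -0.361 and -0.419 and at -0.143, -0.323 and -0.079. Between the knockdowns 4 of 9 origin, 4 of 9 polymerase, 3 of 6 clamp and 1 of 5 nucleotide genes were called lower in CBFb_KD, and Orc3 and Gins3 were the members called higher. In each of these 4 steps every CBFb_KD array was below every Control array. CBFb_KD array 1 was the least reduced array of its group, and Ring1b_KD array 2 the most reduced of its own. Polymerase and clamp means did not overlap between the knockdowns, narrowly so for polymerases (-0.331 on CBFb_KD array 1 against -0.318 on Ring1b_KD array 2). The ranges of the origin and nucleotide steps overlapped, through those same arrays only. Differences between steps were not tested, since genes are not replicates.

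Many members are read by more than 1 probe set. Among 30 other probe sets of members called in CBFb_KD, 14 were called the same way and the rest were not called. In Ring1b_KD it was 5 of 11 and between the knockdowns 9 of 19, again with the rest not called.

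**Figure D5:**
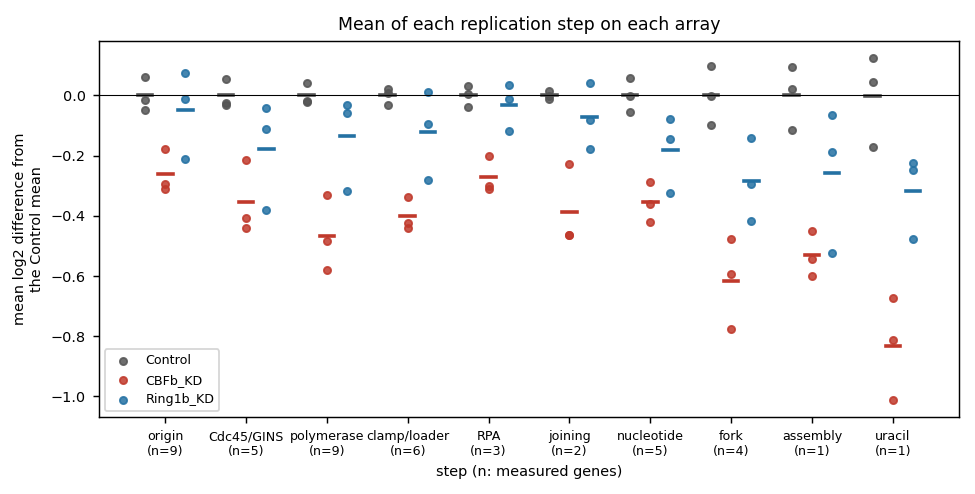
Mean log2 difference from the Control mean (y axis) for the measured genes of each step (x axis), with a point for each array and a line for the group mean. All CBFb_KD points lie below the Control points in each step, and array 2 is the lowest Ring1b_KD point in each step.

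Other genes of the pathway, also listed with earlier results of these data known, were mostly lower in CBFb_KD too. Of 57 measured genes outside the list, 39 were called lower and 1 higher in CBFb_KD, 10 and 1 in Ring1b_KD, and 25 and 3 in CBFb_KD against Ring1b_KD, with medians of -0.363, -0.147 and -0.271. The shares of all genes called lower and higher were 7.6% and 7.78% in CBFb_KD and 6.57% and 5.66% in Ring1b_KD. Between the knockdowns they were 9.31% and 10.1%. All 6 MCM helicase genes were lower in CBFb_KD (median -0.585) and 1 of 6 in Ring1b_KD (median -0.123). Of 9 origin firing factors 6 fell in CBFb_KD, and in Ring1b_KD Dbf4, the activator of the Cdc7 kinase, fell (-0.67, limma adjusted p = 0.000614) while Donson rose (0.52, limma adjusted p = 0.009). The largest decreases in CBFb_KD were of Exo1, a nuclease of repair and replication (-0.91, limma adjusted p = 0.000489), and Nasp, a histone chaperone (-0.84, limma adjusted p = 0.000212). Pold4, the smallest subunit of polymerase delta, was the 1 gene that rose (0.36, limma adjusted p = 0.0287).

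Among other nucleotide enzymes 10 of 17 fell in CBFb_KD and 3 in Ring1b_KD, where Gart, an enzyme of purine synthesis, stood at -0.73 (limma adjusted p = 0.000622). Of 9 primer removal nucleases and topoisomerases 6 fell in CBFb_KD, with a median of -0.351. In Ring1b_KD none of them was called, with a median of -0.168. Of 7 other genes listed under chromatin assembly 5 and 3 fell, and of 9 listed under polymerase and loader subunits 6 and 2. Not every gene of these lists encodes such a subunit or assembly factor. Between the knockdowns the largest differences were of Pclaf, a PCNA-binding factor (-0.77, limma adjusted p = 0.00147), and Pole3, a histone-fold subunit of polymerase epsilon (-0.73, limma adjusted p = 2.98e-05), both lower in CBFb_KD. Rrm2b, the p53-responsive subunit of ribonucleotide reductase, was higher in CBFb_KD than in Ring1b_KD (0.53, limma adjusted p = 0.0264), as was Umps, an enzyme of pyrimidine synthesis (0.36, limma adjusted p = 0.0059), and Rrm2 went the opposite way.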

How the data were processed

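Arrays of 3 CBFb_KD, 3 Ring1b_KD and 3 Control samples were grouped by their titles. Their 45101 probe sets carry deposited values between 3.227 and 15.355, taken to be log2 because of that span. How the authors corrected background, summarised probes and scaled the arrays is not given in the sources used here. Array medians ran from 6.514 to 6.651, with the Ring1b_KD arrays highest, so the values were quantile normalized, which removes such a shift whatever its source. The 64 control probe sets were then dropped. GEO's platform annotation named 34945 probe sets by 1 gene, 932 by several and left 9160 unnamed, and 34741 were matched to GRCm38.p6 gene identifiers. The brightest single-gene probe set stood for each of 18193 genes. Group means over 9 arrays were fitted by limma 3.58.1 in R 4.3.3, using lmFit followed by eBayes with an intensity trend, and the procedure was tested on simulated data. The two-sided p-values received a Benjamini-Hochberg adjustment across every gene tested, and called means under 0.05. All 46 members are named. Non-members are named as up to 2 called genes per direction and comparison, and values per array are given for up to 3 genes of each step by F test. Members, lists and steps were chosen with earlier results of these data known. The number of arrays limits the precision.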

Additional observations from a re-analysis of the deposited data

How the results depend on the processing

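Each count was recomputed under 16 alternatives. The 34 members called in CBFb_KD against Control ranged from 22 to 35 when 1 array was left out, and 19 of them were called in every alternative, as were 2 of 10 in Ring1b_KD (Dut and Rfc1) and 11 of 21 between the knockdowns. In Ring1b_KD the members called numbered 19 as deposited and 25 with median centring, and 2 to 13 when 1 array was left out. Between the knockdowns they numbered 13 with median centring. All genes called, 2798 in CBFb_KD and 2225 in Ring1b_KD with all arrays, ranged from 1751 to 2995 and from 1139 to 2365 with 1 array left out. Orc1 in CBFb_KD turned from 0.04 to -0.312 with the mean of its probe sets. With the replicate number as a block the members called numbered 35, 16 and 24 in the 3 comparisons. Deviations of same-numbered arrays correlated at -0.068 to 0.377, and 8 of 9 arrays were closest to one of their own number, which is a hint from the data and not the design. Median centring moved the share of all genes called lower most, to 2541 lower and 352 higher in Ring1b_KD against 1196 and 1029, and to 514 and 2709 against 1693 and 1843 between the knockdowns, and the values as deposited gave 1709 and 882 and then 1285 and 2118.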
